A study of Mus musculus with 24 samples.

Results

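Interferon-stimulated genes are the genes that cells switch on when they sense interferon or foreign nucleic acid. Their messenger RNA was measured here in mouse cerebellum as a set of 33 genes listed by name as known members of this response. The rule that lists them uses no measured value, but the set was chosen with earlier results of these data known. All 33 genes were found among the 43430 genes of the count table, and 31 passed the filter on low counts and were among the 15300 genes tested. The other two, Zbp1, a sensor of Z-form nucleic acid, and Mx1, an antiviral GTPase, totalled 151 and 87 counts over the 24 libraries and were not tested.

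The 24 mice were euthanized at about 7 weeks of age and fell into 4 genotype groups of 6, each of 3 males and 3 females, with 1 library of whole cerebellum per mouse. Controls were of 2 kinds, Cre control and NDI1 control, the second expressing NDI1, a yeast NADH dehydrogenase that returns NADH to NAD+ and, unlike complex I, moves no protons. In cKO a conditional knockout leaves brain mitochondria short of working complex I, where electrons enter the respiratory chain, and cKO+NDI1 combines this knockout with NDI1. The title of the study speaks of NAD+ regeneration, lifespan and ataxia, so the comparisons ask what the knockout changed and what differed when NDI1 was present. The labels name neither the deleted gene, the Cre driver, the alleles of the control groups nor whether the mice were littermates, and p-values measure only the spread between these mice. Ndufs4, a complex I subunit gene that is deleted in a widely used model of this kind, was counted at 67.1 to 133 CPM (counts scaled to the library's size) in the 6 cKO libraries and at 104 to 164 CPM in the 6 Cre control libraries, ranges that overlap. Its log2 fold change was -0.47 (SE 0.16, adjusted p = 0.0939, edgeR's quasi-likelihood test). A count over the whole gene does not check the loss of an exon.

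Interferons are secreted proteins that bind receptors on the cell surface. The receptors activate the kinases Jak1 and Tyk2, which act on Stat2, and Stat2 joins Irf9 in a complex that binds the interferon-stimulated response element (ISRE) in the promoters of its targets. Some targets raise the alarm further, such as the transcription factor Irf7 and the sensors of viral RNA; others block viruses, call in lymphocytes or, like Usp18, shut the receptor off again. In the brain, neurons, astrocytes, microglia and endothelial cells can all respond, and the same genes also rise when nucleic acid of the cell itself reaches the cytosol.

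The RefSeq promoter windows of the 3 genes that passed the test in cKO against Cre control are shown because all 3 belong to this response and differ in whether the window holds an ISRE. Each window runs from 250 bases before to 50 bases after the annotated start (build GRCm38.p6, 5′ to 3′ on the gene's strand). Capitals mark the ISRE core searched for, GAAANNGAAA, or its reverse complement on the other strand, TTTCNNTTTC. The Cxcl10 window is chr5:92348840-92349139 on the minus strand, that of Stat2 is chr10:128270248-128270547 on the plus strand and that of Irf7 is chr7:141266375-141266674 on the minus strand.
Cxcl10: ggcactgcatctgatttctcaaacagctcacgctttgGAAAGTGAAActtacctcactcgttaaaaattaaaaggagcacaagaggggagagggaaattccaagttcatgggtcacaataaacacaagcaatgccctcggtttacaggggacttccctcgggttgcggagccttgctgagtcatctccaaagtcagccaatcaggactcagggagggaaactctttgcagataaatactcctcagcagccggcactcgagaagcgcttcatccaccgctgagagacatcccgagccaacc
Stat2: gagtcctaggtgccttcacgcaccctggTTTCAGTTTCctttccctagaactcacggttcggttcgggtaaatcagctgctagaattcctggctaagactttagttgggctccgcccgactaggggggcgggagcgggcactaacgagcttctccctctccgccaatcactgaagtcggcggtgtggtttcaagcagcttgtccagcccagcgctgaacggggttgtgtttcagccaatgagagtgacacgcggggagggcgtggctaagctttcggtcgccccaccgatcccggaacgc
Irf7: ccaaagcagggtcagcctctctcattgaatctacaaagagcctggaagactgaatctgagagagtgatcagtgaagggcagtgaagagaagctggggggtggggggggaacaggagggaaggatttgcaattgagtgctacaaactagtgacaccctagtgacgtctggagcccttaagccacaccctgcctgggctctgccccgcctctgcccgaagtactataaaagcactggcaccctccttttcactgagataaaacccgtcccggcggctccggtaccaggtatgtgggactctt
The core lay 213 bases before the start in Cxcl10 and, on the other strand, 222 bases before the start in Stat2. The Irf7 window holds no such core, which says only that these letters are not in this stretch. Windows were found for 24 of the 33 genes, and 14 of these 24 genes (58.3%) hold the core against 3.99% of the 27025 genes that have a window. The other motif searched, the gamma-activated sequence TTCNNNGAA, which reads the same on both strands and at 2 of its matches overlaps an ISRE core, was found in 7 of the 24 genes (29.2%) and in 9.55% of all genes with a window.

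Levels of these genes in the Cre control were low for most of the set. Per length, on the scale of CPM per kilobase of exon, the most abundant was Ifitm3, a membrane protein that blocks viral entry, at 27.8 ± 5.08 (SD, n = 6). Ifi27, an interferon-induced membrane protein, followed at 25.8 ± 4.53, within the spread of Ifitm3, and Stat2 at 8.18 ± 0.514 and the viral tether Bst2 at 7.74 ± 1.86 came next without differing beyond their spread. The lowest of the tested genes were Mx2, a dynamin-like antiviral GTPase, at 0.227 ± 0.070 and the chemokine Cxcl10 at 0.217 ± 0.16, below Parp14 at 0.379 ± 0.15, and the untested Zbp1 and Mx1 were lower still, at 0.138 ± 0.059 and 0.044 ± 0.066. Stat2 had at least 447 counts in every library, Cxcl10 1 to 52, and Mx1 0 to 14.

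Library totals ranged from 7584374 to 19785264 counts, and the 3 shallowest were cKO+NDI1 F3, cKO M1 and cKO F1 (M, male; F, female; the number is that of the replicate). Defining markers of cerebellar neurons were abundant in every group, at 9498 to 12250 CPM summed over 8 markers. Markers of T and NK cells summed to at most 2.57 CPM over 8 genes, and those of B cells to at most 2.45 CPM over 4, with 1 of these 12 genes reaching the filter. In whole tissue, a change in how many cells express a gene and a change in RNA per cell cannot be told apart.

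Before any comparison, 1 control library stood apart. Averaged over the 31 tested genes, the log2 level relative to the mean of the Cre control was 0.46 in Cre control F3 and between -0.23 and 0.04 in the other 5 libraries of that group. Cre control F3 held the highest level of its group for 23 of the 31 genes. The main results that rest on the Cre control are therefore followed by their values without it. Cre control F3 was singled out by the levels of these same genes, so higher fold changes without it are built in. The p-values of fits without it carry the same choice. Values without that library show how far a result rests on it and are no separate support.

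**Figure D1:**
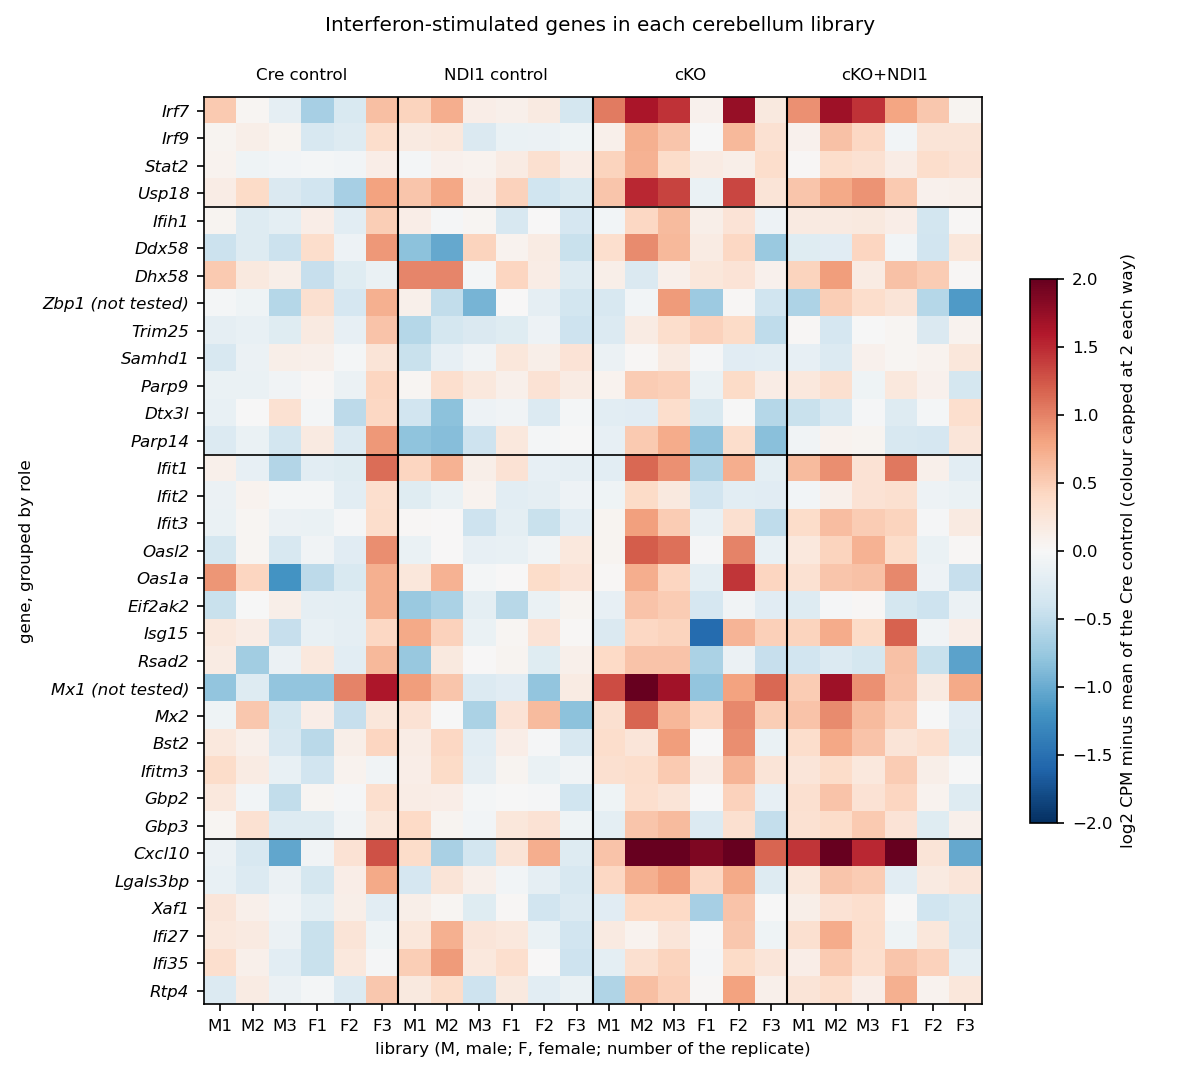
Each row is 1 of the 33 interferon-stimulated genes, ordered by role, and each column is 1 of 24 libraries; colour gives log2 CPM minus the mean of the 6 Cre control libraries. The reddest columns are cKO M2, M3 and F2, followed by cKO+NDI1 M2 and Cre control F3, and cKO+NDI1 M3 and F1 are paler red.

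The same mean over 31 genes was uneven among cKO mice too. It was 0.63 in cKO M2, 0.65 in cKO M3 and 0.59 in cKO F2, but 0.08 in cKO M1, -0.07 in cKO F1 and -0.04 in cKO F3. In cKO+NDI1 it ran from -0.07 in F3 to 0.47 in M2, with a median of 0.30 against 0.34 in cKO, 0.02 in NDI1 control and -0.06 in Cre control. All 4 groups overlapped, and the highest libraries of both knockout groups lay above every library of the NDI1 control, whose highest value was 0.12. Depth moved with part of this pattern: cKO M1 and cKO F1 had 8665396 and 9304738 counts, and cKO M2, M3 and F2 had 15901824, 12567029 and 10528777, while cKO F3, also low in the set, had 12751868. With every library thinned to the smallest total, 4 genes were called in cKO against Cre control, against 3 at full depth.

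**Figure D2:**
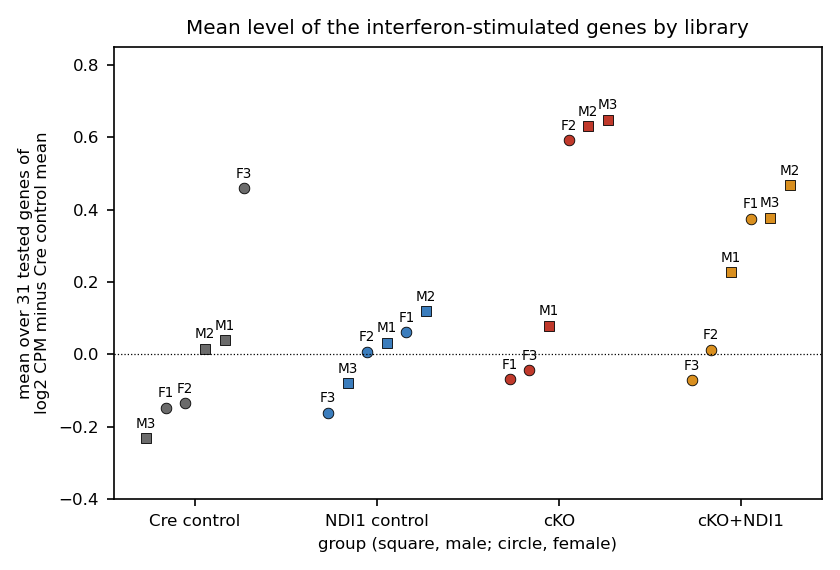
Each point is 1 library, placed at the mean over the 31 tested genes of log2 CPM minus the Cre control mean (y axis), by group (x axis) and sorted within a group only so that points do not cover each other. Cre control F3 at 0.46 lies above the other 5 Cre control libraries, and the 6 cKO libraries range from -0.07 to 0.65.

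In cKO against Cre control, 3 of the 31 tested genes rose and 0 fell at an adjusted p under 0.05 (edgeR's quasi-likelihood test, Benjamini-Hochberg over 15300 genes). They were Cxcl10, a chemokine that draws T cells, Irf7, the transcription factor that amplifies interferon production, and Stat2, a subunit of the complex that binds the ISRE. Among all genes tested, 3.06% were called higher and 1.81% lower, so 3 of 31 is a small count, above that background. More of the set pointed upward than was called: 28 of 31 log2 fold changes were positive against 48.1% of all genes, with a median of 0.22 against -0.01. Many of these genes were high together in the same mice, such as cKO M2, M3 and F2. Counts of positive genes, here and below, are thus not 31 separate observations, and the share of all genes is no test of them. At an unadjusted p under 0.05, 10 of the 31 were higher against 10.2% of all genes, and 0 were lower. No gene of the set had all 6 cKO libraries above all 6 Cre control libraries, as 1.61% of all genes did. Without Cre control F3, 7 genes rose (the 3 above with Irf9, Usp18, Oasl2 and Lgals3bp), against 2.79% of all genes called higher. Then 29 of 31 fold changes were positive, against 50.4% of all genes, and the median log2 fold change was 0.35. A shift upward was built in here, because that library was chosen for its high levels of these genes. The median of each of the 4 role groups was higher without that library, at 0.85 for signalling, 0.26 for sensors, 0.33 for effectors and 0.33 for the remaining genes. Leaving out cKO M1, a shallow library, gave 5 calls. Over all 24 fits that left out 1 library, the calls ran from 3 to 7 and the median log2 fold change from 0.17 to 0.35. Females alone, with fewer samples, gave 0 calls.

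Cxcl10 (ENSMUSG00000034855, chromosome 5, 92346638 to 92348889, minus strand, build mm10, which is GRCm38) had the largest fold change of the set. Its level in the Cre control was lowest at 0.131 CPM, had a median of 0.379 and was highest at 1.20; in the NDI1 control the 3 values were 0.214, 0.426 and 0.782. In cKO they were 0.683, 2.29 and 4.10, and in cKO+NDI1 0.132, 1.39 and 2.81. Of the 6 cKO libraries, 4 lay above the highest Cre control library, which was F3, and the lower pair were M1 and F3, so the groups overlapped. The mean was 0.488 ± 0.37 CPM (SD, n = 6) in the Cre control and 2.26 ± 1.28 in cKO, a 4.62-fold difference (log2 2.21, SE 0.50, adjusted p = 0.0111, edgeR), and the log2 fold change was 2.72 without Cre control F3. Its exons overlap those of Art3 on the opposite strand in GENCODE M21; without known strand settings in the counting, reads of the pair cannot be told apart. The log2 fold change of Art3 was 0.14 (adjusted p = 0.62, edgeR), from 5.70 ± 1.05 to 6.27 ± 1.16 CPM.

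Irf7 (ENSMUSG00000025498, chromosome 7, 141262706 to 141266481, minus strand) stood at 2.10 CPM in the lowest Cre control library, with a median of 3.28 and a highest value of 5.26. The NDI1 control gave 2.66, 3.84 and 5.78 CPM, cKO gave 3.65, 8.36 and 11.8, and cKO+NDI1 gave 3.57, 6.32 and 11.4. All 3 male cKO libraries and cKO F2 lay above every Cre control library, whereas cKO F1 and F3 lay within the control range. The mean rose 2.16-fold, from 3.61 ± 1.26 to 7.84 ± 3.51 CPM (log2 1.11, SE 0.26, adjusted p = 0.0148, edgeR), and the log2 fold change was 1.35 without Cre control F3. Fitted on the libraries of these groups alone, the adjusted p was 0.0704. Irf7 shares exon sequence with Phrf1 on the opposite strand, a gene with 16293 counts over all libraries against 1928 for Irf7. Phrf1 had a log2 fold change of 0.08 (adjusted p = 0.811, edgeR).

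Stat2 (ENSMUSG00000040033, chromosome 10, 128270576 to 128292849, plus strand) was the best counted of the 3, at 447 to 1256 counts per library. Its lowest, median and highest levels were 45.4, 47.1 and 53.4 CPM in the Cre control, then 46.9, 52.5 and 60.1 for the NDI1 control, 52.2, 62.0 and 78.7 in cKO and 49.0, 59.5 and 62.1 in cKO+NDI1. In cKO 5 of 6 libraries exceeded the highest Cre control library; cKO F2, one of the highest for Irf7 and Cxcl10, was the exception. The mean rose 1.29-fold, from 48.5 ± 3.05 to 62.5 ± 9.48 CPM (log2 0.37, SE 0.087, adjusted p = 0.0147, edgeR), and the log2 fold change was 0.40 without Cre control F3. On the libraries of these groups alone the adjusted p was 0.0561.

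**Figure D3:**
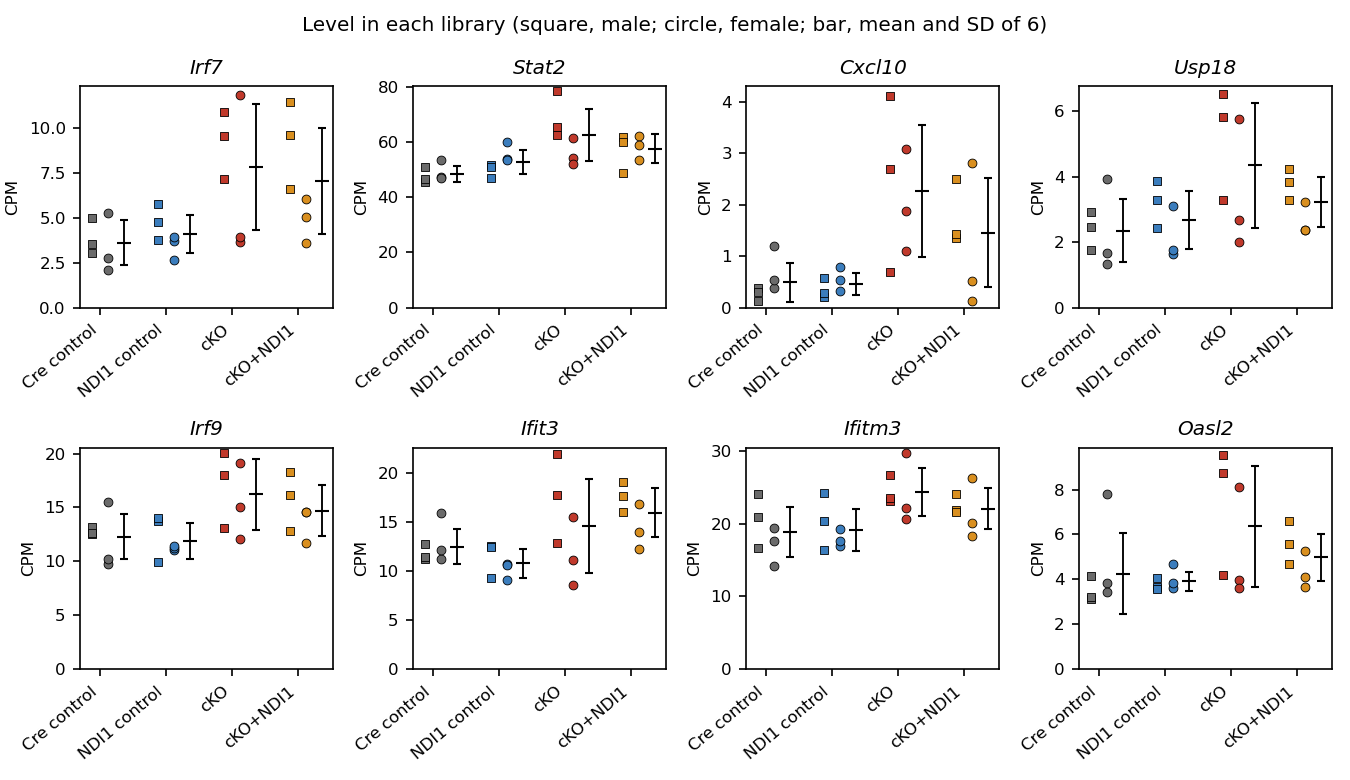
Each panel shows the CPM (linear axis from 0) of 1 gene in the 24 libraries by group, with squares for males, circles for females and a bar for the mean and SD of 6 libraries. Cxcl10, Irf7 and Stat2 passed the test in cKO against Cre control, where the libraries of the groups still overlap; the other 5 panels show genes that did not pass.

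The remaining signalling genes had positive fold changes that missed the threshold. Irf9, the DNA-binding partner of Stat2, had 9.74, 12.6 and 15.5 CPM as the lowest, median and highest Cre control level and 12.1, 16.5 and 20.1 CPM in cKO. Its log2 fold change was 0.41 (SE 0.13, adjusted p = 0.0743, edgeR), with 3 of 6 cKO libraries above the control range. Rnf31, which overlaps Irf9 on the same strand and encodes a linear ubiquitin ligase subunit, was examined after these values were seen; it rose by a log2 of 0.31 (SE 0.085, adjusted p = 0.0344, edgeR). Usp18, the protease that removes Isg15 from proteins and blocks the receptor, had 1.34, 2.11 and 3.94 CPM in the Cre control and 1.99, 4.54 and 6.52 CPM in cKO. The 3 cKO libraries above the Usp18 control range were M2, M3 and F2, the libraries with the highest mean of the set. The log2 fold change of Usp18 was 0.88 (SE 0.26, adjusted p = 0.0543, edgeR). Without Cre control F3, Irf9 had a log2 fold change of 0.51 (adjusted p = 0.0189, edgeR) and Usp18 one of 1.17 (adjusted p = 0.00553, edgeR). That library was singled out by its high levels of these genes, so a shift upward was built in.

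Among 13 tested antiviral effectors, 12 fold changes were positive, none passed at the adjusted threshold, and the median log2 fold change was 0.22. For Ifitm3 the lowest, median and highest levels were 14.2, 18.6 and 24.1 CPM in the Cre control and 20.7, 23.4 and 29.8 in cKO; 2 cKO libraries lay above the control range. Its log2 fold change was 0.38 (SE 0.12, adjusted p = 0.0617, edgeR). Mx2 stood at 0.536, 0.814 and 1.22 CPM in the Cre control and 1.03, 1.26 and 1.94 in cKO, with 5 to 31 counts per library. Mx2 overlapped too, with 3 cKO libraries above every control and a log2 fold change of 0.75 (SE 0.27, adjusted p = 0.109, edgeR). Oasl2, a relative of the oligoadenylate synthetases that activate RNase L, had 3.12, 3.62 and 7.83 CPM in the Cre control and 3.61, 6.16 and 9.52 in cKO, and a log2 fold change of 0.59 (SE 0.24, adjusted p = 0.185, edgeR). The highest Oasl2 control was again F3, and the same 3 cKO libraries, M2, M3 and F2, exceeded it. Without that control, which was singled out by its high levels of the set, Oasl2 had a log2 fold change of 0.87 (adjusted p = 0.0211, edgeR). Ifitm3 and Mx2 then had 0.37 and 0.82 (adjusted p = 0.0865 and 0.104, edgeR). Isg15, the ubiquitin-like modifier that gives the pathway one of its best-known products, had a log2 fold change of 0.20, and the tetratricopeptide proteins Ifit1, Ifit2 and Ifit3 had 0.34, -0.04 and 0.22, or 0.71, 0.06 and 0.33 without Cre control F3. Ifit3 and Ifit3b, and Oas1a with its neighbouring paralogs, are near-identical copies whose reads may be split between them, so their separate values are uncertain.

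The 8 tested nucleic acid sensors and their regulators stood closest to no change, with a median log2 fold change of 0.10, 6 positive and 0 called. The RNA helicases Ifih1 (MDA5), Ddx58 (RIG-I) and Dhx58 (LGP2) had log2 fold changes of 0.21, 0.32 and 0.08, and Samhd1, a nucleotide hydrolase, had -0.06. Parp9 and Dtx3l, whose proteins form a complex and whose genes overlap on opposite strands, had 0.26 and -0.17. Of the 6 secreted, apoptosis-related and other genes, all had positive log2 fold changes, from 0.15 for Xaf1 to that of Cxcl10. Lgals3bp, a secreted galectin-binding glycoprotein, had 8.97, 10.4 and 19.5 CPM in the Cre control, where F3 was highest, and 9.59, 17.1 and 20.7 CPM in cKO. Its groups overlapped, with a log2 fold change of 0.46 (SE 0.19, adjusted p = 0.164, edgeR) and 2 cKO libraries above that control. Without Cre control F3, singled out by its high levels of the set, Lgals3bp had a log2 fold change of 0.69 (adjusted p = 0.0129, edgeR).

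The comparison of cKO+NDI1 with NDI1 control asks the same question in mice that all carry NDI1, with libraries that the first comparison did not use. None of the 31 genes was called (edgeR), and neither was any of the 15300 genes: 0% in all. At an unadjusted p under 0.05, 5 of 31 were higher and 0 lower, against 2.41% of all genes higher, and DESeq2 also called 0 of the set. Again 28 of 31 log2 fold changes were positive, against 46.9% of all genes, with a median of 0.22 against -0.01. In both comparisons 26 of the 31 were positive and 1, Samhd1, was negative, and among all genes 30.3% were positive in both. Genes that move together within a mouse are counted singly here, so that share is no test of the count. No gene of the set had every cKO+NDI1 library above every NDI1 control library, against 0.19% of all genes.

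Ifit3, one of the tetratricopeptide proteins, had the smallest p of the set in that comparison. Its lowest, median and highest levels were 9.12, 10.7 and 12.6 CPM in the NDI1 control and 12.3, 16.5 and 19.1 in cKO+NDI1. In cKO+NDI1, 5 of 6 libraries exceeded every NDI1 control library, F2 being the exception. The log2 fold change of Ifit3 was 0.56 (SE 0.15, adjusted p = 0.482, edgeR), and that of its near-copy Ifit3b was 0.51 (SE 0.15, adjusted p = 0.623, edgeR). Cxcl10 had a log2 fold change of 1.74 (SE 0.53, adjusted p = 0.64, edgeR) and Irf7 one of 0.78 (SE 0.26, adjusted p = 0.795, edgeR), each with 4 of 6 cKO+NDI1 libraries above the control range. Stat2, called without NDI1, had 0.12 (SE 0.086, adjusted p = 0.998, edgeR).

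Irf9 reached 9.90, 11.3 and 14.1 CPM in the NDI1 control and 11.7, 14.6 and 18.3 in cKO+NDI1, a log2 fold change of 0.30 (SE 0.13, adjusted p = 0.998, edgeR). Gbp2, a guanylate-binding protein that attacks membranes around intracellular microbes, ran from 4.29 to 6.31 CPM around a median of 5.63 in the NDI1 control and from 4.76 to 8.55 around 7.09 in cKO+NDI1, with 0.31 (SE 0.14, adjusted p = 0.998, edgeR). Both genes had 4 of 6 cKO+NDI1 libraries above the control range, and both ranges overlapped. Ifitm3 ran from 16.4 to 24.3 CPM around a median of 18.5 in the NDI1 control and from 18.4 to 26.3 around 21.8 in cKO+NDI1, and its log2 fold change was 0.21 (adjusted p = 0.998, edgeR). The control range of Lgals3bp was 9.04 to 13.7 CPM around 10.6, against 9.86 to 16.9 around 13.6, and that of Mx2 was 0.390 to 1.30 around 0.886, against 0.661 to 1.66 around 1.20. Lgals3bp and Mx2 had log2 fold changes of 0.35 and 0.50, with 2 libraries each above the control range.

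**Figure D4:**
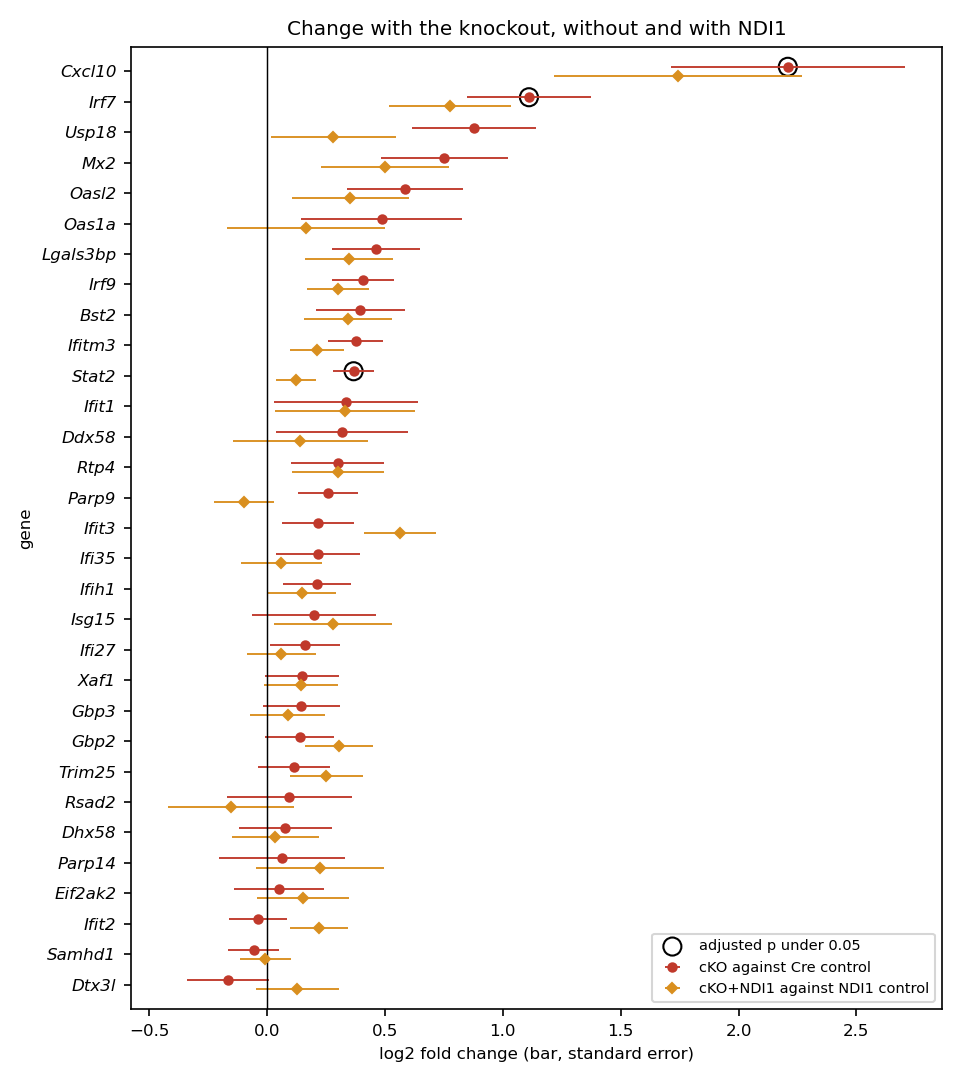
Each row is 1 tested gene; circles give the log2 fold change of cKO against Cre control and diamonds that of cKO+NDI1 against NDI1 control (x axis), bars are standard errors, and black rings mark an adjusted p under 0.05. Of the 31 genes, 28 lie to the right of 0 in each comparison, and the 3 ringed genes are Cxcl10, Irf7 and Stat2.

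Whether the knockout's change differed with NDI1 was tested as an interaction, and 0 of the 31 genes were called higher or lower in it (edgeR; 0% of all genes in each direction). At an unadjusted p under 0.05 the count was also 0 of 31, against 2.05% of all genes higher and 3.12% lower, and DESeq2 called 0. The interaction was positive for 10 of 31, against 48.5% of all genes, with a median log2 of -0.06, which was -0.16 without Cre control F3 and 0.0023 without cKO F2. All 4 signalling genes were negative, from -0.60 for Usp18 to -0.11 for Irf9. The interaction of Irf7 was -0.33 with an SE of 0.37 and that of Cxcl10 was -0.47 with an SE of 0.76, errors as large as the values.

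Knockout mice with and without NDI1 were also set against each other directly. In cKO+NDI1 against cKO, 0 of 31 genes passed (edgeR; 0.085% of all genes were called higher and 0.124% lower), 0 had an unadjusted p under 0.05, against 4.11% of all genes higher and 4.44% lower, and DESeq2 called 0. Fold changes were positive for 11 of 31, against 47.6% of all genes, with a median log2 of -0.14, and the 4 signalling genes were all negative. That median rested in part on 1 library: without cKO F2 it was -0.0038, and without cKO M1 it was -0.21. Irf7 had -0.17 (SE 0.25), Cxcl10 -0.60 (SE 0.42), Usp18 -0.45 (SE 0.26) and Stat2 -0.12 (SE 0.087). Each of these ranges in cKO+NDI1 lay within or overlapped that in cKO, and a p that misses the threshold does not show equal levels.

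Against the Cre control, the cKO+NDI1 group had positive log2 fold changes for 24 of 31 genes, against 48.8% of all genes, and a median of 0.24. None was called (edgeR; 0.843% of all genes were called higher); 5 were higher at an unadjusted p under 0.05, against 7.02%, and DESeq2 called 1, Irf7. Irf7 had a log2 fold change of 0.94 (SE 0.26, adjusted p = 0.0736, edgeR). Without Cre control F3, singled out by its high levels of the set, Irf7 had 1.17 (adjusted p = 0.0443, edgeR). In that fit 28 of 31 were positive with a median of 0.34, and a shift upward was built in. This comparison shares libraries with those above, so its values stand beside them and not as a separate result. For NDI1 on its own, in NDI1 control against Cre control, 13 of 31 fold changes were positive, against 51.4% of all genes, the median log2 was -0.02, and 0 were called (edgeR; 1 gene of all those tested, 0.00654%, was called lower). In that comparison 3 of 31 genes, 1 higher and 2 lower, had an unadjusted p under 0.05, a share near that of all genes (4.9% higher and 4.31% lower), and DESeq2 called 0. They were Dhx58 at 0.42, Trim25, a ubiquitin ligase of the RIG-I pathway, at -0.36 and Eif2ak2, the kinase PKR, at -0.40. The direction of the set turned on 1 control: without Cre control F3, 23 of 31 were positive, against 50.9% of all genes, the median was 0.08, and 0 were called (edgeR; 1 of 31 at an unadjusted p under 0.05).

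By group mean, the highest of the 4 groups was cKO for 19 of the 31 genes, cKO+NDI1 for 10, Cre control for 2 and NDI1 control for 0. The lowest was the NDI1 control for 15, the Cre control for 14 and each knockout group for 1. Without Cre control F3 the highest was cKO for 19 and cKO+NDI1 for 10, and the lowest was the Cre control for 21 and the NDI1 control for 8. The order of group means was not counted over all genes tested, so these counts only describe the set. The spread between mice was also widest in cKO: the median SD of the log2 level was 0.41 there, against 0.32 in Cre control, 0.27 in NDI1 control and 0.29 in cKO+NDI1. That spread was neither tested nor set beside that of all genes, and the cKO group includes the shallow libraries cKO M1 and cKO F1.

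The sexes were compared after these values had been seen. In males, 29 of 31 genes were higher in cKO than in Cre control, with a median log2 fold change of 0.45; in females 19 were, with a median of 0.11. For Cxcl10 the log2 fold change was 3.25 (SE 0.76) in males and 1.49 (SE 0.66) in females, for Stat2 0.53 (SE 0.10) and 0.19 (SE 0.10), and for Irf7 1.28 (SE 0.37) and 0.94 (SE 0.39). The difference between the sexes was larger in males for 25 of 31, against 49% of all genes, and 0 were called (edgeR; 0% of all genes). At an unadjusted p under 0.05 it held 13 of 31 against 20.6% of all genes. It rests in part on 1 female control: without Cre control F3, 18 of 31 were larger in males, against 48.8% of all genes, and 4 had an unadjusted p under 0.05, against 11.3%.

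The changes were also read by whether the promoter window holds the ISRE core. In cKO against Cre control the 14 genes with the core were all positive, with a median log2 fold change of 0.27, and of 10 tested genes with a window but no core 7 were positive, with a median of 0.18; without Cre control F3 the medians were 0.36 and 0.23. In cKO+NDI1 against NDI1 control the medians were 0.19 with the core and 0.24 without it, and 13 of 14 and 9 of 10 were positive.

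Other genes of the pathway were read from lists by role. Of 13 interferon genes, 0 had enough counts to test: Ifnz totalled 6 counts over 24 libraries, Ifnb1 2, Ifne and Ifng 1 each, and the other 9, Ifna1 among them, 0. Transcripts of these 13 interferon genes were thus not detectable above a few counts at this depth in any group, and interferon genes outside the list were not read. In cKO against Cre control 3.06% of all genes were called higher and 1.81% lower. Among 10 tested receptors, kinases and STATs, 1 rose and 0 fell there. It was Tyk2, the kinase bound to the type I interferon receptor, with 10.4, 12.4 and 13.4 CPM as the lowest, median and highest Cre control level and 14.6, 15.8 and 16.96 in cKO. All 6 cKO libraries lay above all 6 Cre control libraries, as for 1.61% of all genes, with a log2 fold change of 0.38 (SE 0.075, adjusted p = 0.00406, edgeR). The cKO+NDI1 group stood at 13.97, 16.3 and 16.8 CPM, a log2 of 0.38 over the Cre control (adjusted p = 0.0162, edgeR), and the NDI1 control at 12.6, 14.9 and 15.3, a log2 of 0.26 over it (adjusted p = 0.254, edgeR). With NDI1 in both groups the log2 fold change of Tyk2 was 0.12 (adjusted p = 0.998, edgeR).

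None of 15 tested sensors, adaptors and interferon regulatory factors, and none of 9 tested genes that restrain the pathway, passed in cKO against Cre control (edgeR). Of these, 8 of 15 and 7 of 9 were positive, against 48.1% of all genes. In the list of other interferon-stimulated genes, 38 of 50 were tested and 32 had positive fold changes, with a median log2 fold change of 0.25. Of the 38, 2 rose and 0 fell, a small count. Among all genes tested, 48.1% were positive, 3.06% were called higher and 1.81% lower. Parp12, an ADP-ribosyltransferase that restricts RNA viruses, had 13.5, 14.3 and 15.4 CPM in the Cre control and 15.9, 19.6 and 22.1 in cKO, and Helz2, a helicase and nuclear receptor coactivator, had 3.65, 3.72 and 3.86 against 4.64, 5.57 and 5.92. Neither gene's groups overlapped, unlike any of the 31 genes above. Such a separation, with every cKO library higher, was seen for 1.61% of all genes. The log2 fold changes were 0.41 (SE 0.072, adjusted p = 0.00178, edgeR) for Parp12 and 0.54 (SE 0.13, adjusted p = 0.0151, edgeR) for Helz2. Without Cre control F3, Tyk2, Parp12 and Helz2 still rose, by log2 values of 0.40, 0.42 and 0.54. In that fit 4 of the 38 genes were called higher, against 2.79% of all genes. In cKO+NDI1 against NDI1 control the log2 fold changes of Parp12 and Helz2 were 0.09 and 0.25. There 0 of the 38 passed (edgeR), with 26 positive, against 46.9% of all genes, and a median of 0.21.

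Markers of cells that can respond to or carry these genes were read in the same libraries. Of all genes tested, 48.1% were positive in cKO against Cre control and 46.9% in cKO+NDI1 against NDI1 control. The 8 microglial markers summed to 183 to 238 CPM in cKO and 186 to 229 in the Cre control, overlapping ranges. There 4 of 8 were positive and 0 called, with a median log2 fold change of 0.00017. In cKO+NDI1 against NDI1 control all 8 were positive and 0 called, at 176 to 243 against 170 to 215 CPM. Their median log2 fold change in that comparison was 0.19. The part of microglia in the results above was not tested. The 8 endothelial markers summed to 279 to 360 CPM in cKO and 275 to 305 in the Cre control, with 6 of 8 positive. One endothelial marker, the adhesion molecule Pecam1, rose by a log2 of 0.76 (SE 0.089, adjusted p = 0.000151, edgeR), and by 0.74 without Cre control F3. In cKO+NDI1 against NDI1 control 5 of the 8 were negative, with a median log2 of -0.04 and 0 called, and Pecam1 had 0.43 (adjusted p = 0.154, edgeR). The part of endothelial cells in the results above was not tested. Monocyte and neutrophil markers summed to 20.4 to 36.7 CPM in cKO and 21.03 to 43.2 in the Cre control, with 4 of 4 tested markers negative there and 4 of 4 positive in cKO+NDI1 against NDI1 control, 0 called in either; their part was not tested. Astrocyte and Bergmann glia markers, 5 genes, summed to less in cKO, at 3168 to 3543 CPM, than in the Cre control, at 3560 to 3830, ranges that did not overlap. Of the 5, 4 were negative: Slc1a3, a glutamate transporter, fell by 0.28 on the log2 scale (SE 0.051, adjusted p = 0.00262, edgeR), and by as much without Cre control F3, whereas Gfap, an intermediate filament, had a log2 fold change of 0.25 (adjusted p = 0.0536, edgeR). Slc1a3 made up most of the sum, at a mean of 1961 CPM over all libraries against 717.5 for Aqp4, the next. Aqp4, Gdf10 and Aldh1l1 had log2 fold changes of -0.10, -0.05 and -0.10, none called, so the lower sum mostly follows 1 gene. In cKO+NDI1 the 5 glial markers summed to 3140 to 3476 CPM, against 3466 to 3778 in the NDI1 control, with Slc1a3 at -0.23 (adjusted p = 0.259, edgeR) and 0 of 5 called. The part of these glia in the results above was not tested. The plasmacytoid dendritic cell list shares Bst2 with the set, and its other tested marker, Siglech, is also made by microglia.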

How the data were processed

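Messenger RNA of 24 whole cerebella was selected by its polyA tail for library preparation, per the labels' protocols. The tools named per the submitters' processing notes are STAR and HTSeq, after bcl2fastq and Trimmomatic, on build mm10; versions, annotation release and strand setting are not given in the sources used here. The deposited values are raw read counts per gene, which the authors did not normalize; 0 per-library columns were left unused. The labels give each library's group, sex and replicate number. The gene set, the lists and the tests were chosen with earlier results of these data known.

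Gene symbols were found for 42462 of 43430 genes through a reference table. Counts were scaled by TMM, filterByExpr by group set aside poorly counted genes, and 15300 genes were tested with edgeR's quasi-likelihood F test (edgeR 4.0.16, R 4.3.3, robust dispersion) in 1 model of 24 libraries with group and sex. The Benjamini-Hochberg adjustment ran over every tested gene, with 0.05 as the threshold. CPM use TMM library sizes, and log2 CPM a prior count of 2. Levels per kilobase use merged exons of GENCODE M21, because the length column deposited by the authors exceeds the distance from start to end in 3 of the 33 genes. Promoter windows are RefSeq's, and no genome sequence was used. Genes named with values are those called in any comparison, the 6 others with the smallest p in each of the knockout comparisons, called genes of the pathway lists, and, chosen after values were seen, genes that overlap or copy a named gene, markers and the sensors and effectors given by fold change alone. The pipeline was tested on simulated data. Depth ranged from 7584374 to 19785264 counts, and Y-linked genes matched the labelled sex in 24 of 24 libraries. Among 60 within-group pairs none was a copy (chi-square over its degrees of freedom at least 4.67). Alternatives were RLE size factors, library size alone, DESeq2 1.42.0, limma-voom (limma 3.58.1), no filter and a strict one (at least 1 CPM in 6 libraries), no sex term, each sex alone, the compared groups alone, a replicate block, 1 surrogate variable (sva 3.50.0), thinning, each library left out in turn and, chosen after seeing the totals, the 3 shallowest left out.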

Additional observations from a re-analysis of the deposited data

Results flagged for a closer look

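Within a group of 6 libraries, a level was singled out when its gap to the nearest library exceeded Dixon's critical share of the group's range (log2 CPM). Over 124 sets of 1 gene and 1 group this picked 6 levels, and chance alone picks about 1 in 20 sets, so the number itself is not unusual. Of these 6, 3 were high levels in Cre control F3, the library that held the highest level of its group for 23 of 31 genes. There Oasl2 stood at 7.83 CPM against 3.12 to 4.15 in the other 5 libraries, Ifit3 at 15.9 against 11.3 to 12.8, and Parp9, which encodes an ADP-ribosyltransferase relative in the Dtx3l complex, at 7.59 against 5.12 to 5.70. The other 3 were low. Ifih1, the RNA sensor MDA5, was at 4.00 CPM in cKO+NDI1 F2 against 5.29 to 5.99, Dhx58 was at 3.70 in cKO M2 against 4.79 to 5.50, and Gbp2 was at 4.29 in NDI1 control F3 against 5.56 to 6.31. cKO M2 was thus low for Dhx58 while it held the highest level of its group for 11 of the 31 genes.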

How the results depend on the processing

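The median log2 fold change of the 31 genes stayed positive in both knockout comparisons under every alternative run, from 0.10 to 0.44 in cKO against Cre control and from 0.16 to 0.27 in cKO+NDI1 against NDI1 control. Without NDI1, in cKO against Cre control, 3 genes were called; DESeq2 called 6, 1 surrogate variable 7, the libraries without the 3 shallowest 5, the compared groups alone 1 (Cxcl10) and females alone 0, and the cause was not tested; the last pair have fewer samples. Males alone gave 2, Cxcl10 and Lgals3bp, with Irf7 and Stat2 at adjusted p of 0.0539 and 0.0695. Leaving out 1 library gave 3 to 7, with 7 without Cre control F3 and 5 without cKO M1, and Cxcl10, Irf7 and Stat2 were called in all 24 of these fits. In cKO+NDI1 against Cre control, 0 were called, against 1 by DESeq2, 2 with 1 surrogate variable and 1 without the 3 shallowest; leaving out 1 library gave 0 to 1 (Irf7, without Cre control F3 or cKO F2). The other 4 comparisons gave 0 under every alternative. With the replicate block, 4 genes were called in cKO against Cre control (Irf9 added). The labels give the replicate numbers no stated meaning. The correlation of deviations between same-numbered libraries ran from -0.40 to 0.51, with 19 of 36 pairs over 0.1. By the same measure 11 of 24 libraries correlated best with their own number. These values were not compared with what unpaired libraries would give, so they do not settle whether the numbers pair libraries. The median changed sign in NDI1 control against Cre control, from -0.12 in females alone to 0.09 in males alone, and in the interaction, from -0.18 without the 3 shallowest to 0.07 in females alone; in cKO+NDI1 against cKO it ran from -0.23 to -0.0038. Depth limits the genes with few counts, above all Cxcl10, Mx2, Zbp1, Mx1 and the interferons.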
